A study of Mus musculus with 30 samples.

Results

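Border macrophage marker genes were followed across mouse brain microglia sorted from *Bin1* conditional knockout mice. The 9 genes, *Mrc1*, *Cd163*, *Lyve1*, *F13a1*, *Pf4*, *Cbr2*, *Clec10a*, *Ms4a7* and *Mgl2*, were taken by name from the 47643 genes of the deposited FPKM table. The rule for taking them used no cutoff on their values, but earlier results of these data were known when they were chosen. All 9 passed the filter on low values, a mean of at least 0.1 FPKM over 30 libraries, which 16897 genes passed. The libraries came from 3 month-old mice of both sexes (M and F), named here by group and the number in their label (Het-F-0206, for instance), and were made from CD11b+ CD45 medium cells of brains without cerebellum and olfactory bulbs. Homo mice were *Bin1* flox/flox::*Cx3Cr1-Cre*+ (5 males, 5 females) and Het mice were *Bin1* wt/flox::*Cx3Cr1-Cre*+ (6 males, 5 females). WT mice, 5 males and 4 females, were littermates that the study describes as *Bin1* wt/flox without Cre. No group had Cre with both *Bin1* copies, so effects of Cre and of losing 1 copy cannot be told apart. By the strain symbol in the paper's methods, *Cx3Cr1-Cre* is an allele of *Cx3cr1*, a gene that border macrophages also use.

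Border macrophages live in the meninges, in the spaces around vessels and in the choroid plexus, whereas microglia live in the brain tissue itself. Both are CD11b+ and share *Csf1r* and *Cx3cr1*, but border macrophages carry scavenger receptors and lectins that microglia hold low or lack. Their marker genes are therefore commonly read in microglia sorts as a sign of how many border macrophages came through the gate. The comparisons here ask whether the 9 genes varied together from library to library, and whether their levels differed with *Bin1* genotype, sex or mouse number. In bulk libraries, fewer cells of a type and less RNA per cell cannot be told apart.

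*Bin1* was 230 to 290 FPKM in the 9 WT libraries, 117 to 164 in 9 of the 11 Het libraries and 39.5 to 55.6 in the 10 Homo libraries. The libraries labelled Het-F-0206 and Het-M-0199 had 42.7 and 51.8 FPKM, within the Homo range. *Cx3cr1* was 1829 to 2344 FPKM in the WT libraries. It was 13.9 in the library labelled Het-F-0206 and 610 to 1243 in the other Cre-positive libraries. Each Cre-positive library was thus below each WT library in *Cx3cr1*, and the cause was not tested. Each contrast with WT therefore also compares Cre and the level of *Cx3cr1*, which cannot be told apart from loss of *Bin1*. Differences that involve Het groups are also given without Het-F-0206 and Het-M-0199. Depth relative to the median library, read from the smallest steps between low values, was 0.669 to 1.41, and absolute depth is unknown. Its median was 1.175 in WT-M, 0.916 in Het-M and 0.920 in Homo-M, and 1.12 in WT-F, 1.00 in Het-F and 0.946 in Homo-F. Each WT-F library (from 1.05) was deeper than each Homo-F library (up to 1.01). Depth was thus partly tied to genotype, and its part in differences of low genes from WT was not tested. The 6 libraries with the lowest numbers, Homo-M-0093 to WT-F-0122 (3 Homo-M, 2 Het-M and 1 WT-F), are called early here, and the other 24, WT-M-0176 to WT-M-0258, late. What the numbers mark is not given in the sources used here. Microglial markers dominated: the summed FPKM of 12 of them was 21846 to 31664, whereas the 9 border macrophage markers summed to 12.5 to 51.7.

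The 9 genes lie on 7 chromosomes of GRCm38. *Mrc1* (ENSMUSG00000026712, chr2:14229392-14332057), *Pf4* (ENSMUSG00000029373, chr5:90772435-90773383), *Cd163* (ENSMUSG00000008845, chr6:124304656-124330527), *Clec10a* (ENSMUSG00000000318, chr11:70156197-70170834) and *Mgl2* (ENSMUSG00000040950, chr11:70130329-70137550) are on the plus strand. *Lyve1* (ENSMUSG00000030787, chr7:110850607-110863239), *Cbr2* (ENSMUSG00000025150, chr11:120729489-120732114), *F13a1* (ENSMUSG00000039109, chr13:36867178-37050244) and *Ms4a7* (ENSMUSG00000024672, chr19:11321039-11336146) are on the minus strand. *Clec10a* and *Mgl2* are neighbours and near copies: 12.2% of the 50-base words of *Mgl2* transcripts also occur in *Clec10a*, so reads could be split between them. *Cbr2* shares 12.1% of its words with *Gm11771*, *Mir511* lies inside *Mrc1* on its strand, and *F13a1* overlaps *Gm49144* and *Gm30489* on the other strand.

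Promoter windows are shown because the 9 genes varied together, and the 4 printed are those of *Mrc1*, *F13a1*, *Pf4* and *Cbr2*. *Mrc1* was the least tightly linked member, and *Pf4* was the most tightly linked together with *Cd163*, whose window is not printed (r 0.84 with the other members for both). Each window, from RefSeq on GRCm38.p6, runs from 250 bases before the start site to 50 after it, 5′ to 3′ on the strand of the gene. Capitals mark, on either strand, GAGGAA (the core bound by PU.1, the myeloid lineage factor), TGCTGA (part of the MAF recognition element) and TTGCNNAA (a C/EBP core).
Mrc1, chr2:14229164-14229463, plus strand: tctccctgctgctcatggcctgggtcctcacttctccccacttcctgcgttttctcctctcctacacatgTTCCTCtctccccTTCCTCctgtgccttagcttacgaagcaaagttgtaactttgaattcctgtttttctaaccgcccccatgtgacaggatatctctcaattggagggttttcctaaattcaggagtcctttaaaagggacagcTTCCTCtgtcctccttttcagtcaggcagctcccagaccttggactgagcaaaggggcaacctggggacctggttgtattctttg
F13a1, chr13:37050195-37050494, minus strand: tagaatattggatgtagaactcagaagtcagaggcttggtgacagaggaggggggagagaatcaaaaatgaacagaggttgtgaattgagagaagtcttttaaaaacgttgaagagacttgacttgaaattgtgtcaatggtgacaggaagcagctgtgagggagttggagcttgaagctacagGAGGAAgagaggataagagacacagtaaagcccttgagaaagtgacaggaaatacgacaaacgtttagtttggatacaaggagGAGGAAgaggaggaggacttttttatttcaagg
Pf4, chr5:90772185-90772484, plus strand: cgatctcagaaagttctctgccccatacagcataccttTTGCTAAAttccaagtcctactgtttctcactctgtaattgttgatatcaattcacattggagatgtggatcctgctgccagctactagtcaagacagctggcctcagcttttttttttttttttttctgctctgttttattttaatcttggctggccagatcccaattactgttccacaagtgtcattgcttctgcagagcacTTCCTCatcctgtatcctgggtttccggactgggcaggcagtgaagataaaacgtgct
Cbr2, chr11:120731972-120732271, minus strand: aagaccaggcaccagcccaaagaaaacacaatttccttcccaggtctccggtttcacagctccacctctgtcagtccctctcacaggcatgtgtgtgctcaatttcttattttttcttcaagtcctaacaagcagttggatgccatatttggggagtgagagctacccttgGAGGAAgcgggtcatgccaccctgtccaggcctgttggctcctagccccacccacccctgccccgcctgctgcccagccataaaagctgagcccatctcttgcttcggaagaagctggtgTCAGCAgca
The table held windows for 7 of the 9 genes, 9 windows in all. GAGGAA was in 7 of these 9 windows, against 28.3% of 32851 promoters of the same length. The windows without it, which held none of the motifs, were that of *Cd163* and the *Ms4a7* window at chr19:11334646-11334945. TGCTGA was in 1 window, that of *Cbr2*, against 19.5% of promoters, and TTGCNNAA was in 1, that of *Pf4*, against 10.8%. Counted from the start site as 0, GAGGAA stood at -180, -167 and -35 in *Mrc1*, at -66 and 17 in *F13a1*, at -8 in *Pf4* and at -79 in *Cbr2*. These matches describe letters only, and their part in the joint variation was not tested.

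FPKM is scaled by transcript length, so levels can be set side by side between genes. Over the 30 libraries, *Pf4* was the highest at 7.83 ± 4.75 FPKM (SD, n = 30) and *Mrc1* followed at 5.32 ± 2.26 (SD, n = 30). *F13a1*, *Ms4a7* and *Cbr2* stood next at 2.87 ± 1.65, 2.80 ± 1.296 and 2.56 ± 1.16 (SD, n = 30), and neighbours in this order did not differ beyond their spread. *Mgl2* was at 1.14 ± 0.897, *Cd163* at 0.768 ± 0.614, *Clec10a* at 0.741 ± 0.578 and *Lyve1* at 0.518 ± 0.458 FPKM (SD, n = 30), again within each other's spread.

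The scavenger receptors and lectins come first. *Mrc1*, the macrophage mannose receptor, was at 5.24, 13.3, 11.0, 5.205 and 3.56 FPKM in WT-M, at 3.42 to 5.31 in Het-M (median 4.53) and at 4.06, 4.51, 2.40, 4.35 and 4.496 in Homo-M. Females had 4.75, 7.96, 6.81 and 5.18 FPKM in WT, 3.69, 5.29, 4.03, 5.47 and 8.13 in Het and 4.60, 3.30, 6.43, 4.42 and 4.91 in Homo. WT-M-0177 and WT-M-0178 stood above all other libraries, and the ranges of the 6 groups overlapped. *Cd163*, the receptor for haptoglobin and haemoglobin complexes, was at 0.561, 2.42, 2.12, 1.02 and 0.349 FPKM in WT-M, at 0.171 to 0.717 in Het-M (median 0.560) and at 0.342, 0.906, 0.396, 0.353 and 0.130 in Homo-M. Its WT-F values were 0.222, 1.54, 0.903 and 0.654, and its Het-F and Homo-F values were 0.342 to 1.89 and 0.381 to 2.03. The same 2 WT-M libraries were high, together with Het-F-0257 and Homo-F-0228, and the groups overlapped.

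*Lyve1*, a hyaluronan receptor of border macrophages and of lymphatic endothelium, showed how few fragments lay behind the low values. Within each library its FPKM fell on a whole multiple of the value that 1 fragment has at that library's relative depth, in 30 of 30 libraries (within 0.00288 of a whole number, with a tolerance of 0.1), taking the largest common step as 1 fragment. On this reading *Lyve1* had 9, 68, 37, 18 and 13 fragments in WT-M, 2 to 14 in Het-M and 2, 8, 12, 6 and 11 in Homo-M. Females had 17, 37, 19 and 15 in WT, 5, 5, 16, 3 and 36 in Het and 12, 2, 24, 8 and 15 in Homo. A count of 2 fragments, as in Het-M-0199, has an exact 95% Poisson interval of 0.242 to 7.22, and the 68 of WT-M-0177 one of 52.8 to 86.2, for counting error alone, since the reads carry no molecular identifiers. *Lyve1* was thus counted from few fragments in most libraries, with a median of 11.5, and the 4 libraries with 36 or more were WT-F-0192, WT-M-0177, WT-M-0178 and Het-F-0257. Its FPKM was 0.355 to 2.04 in WT-M, 0.0833 to 0.509 in Het-M and 0.115 to 0.504 in Homo-M. Of 5 markers of lymphatic endothelium, *Prox1* had a mean of 1.81 FPKM, above that of *Lyve1*, and the other 4 did not pass the filter. The list summed to 1.27 to 2.88 FPKM over the libraries, and its part in *Lyve1* was not tested.

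*Mgl2* and *Clec10a* encode galactose-type C-type lectins that dendritic cells also use. *Mgl2* was at 1.66, 2.81, 2.96, 1.69 and 1.22 FPKM in WT-M, at 0.174 to 1.03 in Het-M (median 0.534) and at 0.667, 1.43, 0.427, 0.248 and 0.200 in Homo-M. In females it was at 1.45, 1.66, 2.34 and 2.98 in WT, at 0.432, 0, 0.243, 0.443 and 1.65 in Het and at 0.283, 0.658, 1.47, 1.52 and 2.45 in Homo. Each Het-M library lay below each WT-M library, 4 of 5 Homo-M libraries did so too, and in females 1 Het library, Het-F-0257, reached the WT range. *Clec10a* was at 0.8004, 1.86, 1.68, 1.73 and 0.3004 FPKM in WT-M, at 0.392 to 1.06 in Het-M and at 0.342 to 0.775 in Homo-M, and its groups overlapped. Both lectins were at 0 in the library labelled Het-F-0206 and in no other.

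The secreted and enzymatic products follow. *Pf4*, which encodes the chemokine CXCL4 and is also a platelet gene, was at 8.01, 14.0, 13.9, 22.2 and 5.62 FPKM in WT-M, at 3.45 to 9.60 in Het-M (median 6.72) and at 10.8, 8.54, 17.3, 3.91 and 5.11 in Homo-M. It was at 5.23, 8.50, 9.35 and 6.87 in WT-F, at 2.10 to 11.0 in Het-F and at 2.18 to 15.0 in Homo-F, and WT-M-0202 had the highest value. *F13a1*, the catalytic subunit of coagulation factor XIII, was at 3.56, 7.09, 6.43, 4.49 and 2.48 FPKM in WT-M, at 1.39 to 2.65 in Het-M (median 2.08) and at 3.42, 3.29, 2.18, 0.815 and 1.41 in Homo-M. In females it was at 2.68, 5.76, 4.28 and 3.46 in WT, and at 1.35 to 1.61 in 4 Het-F and 1.22 to 2.30 in 4 Homo-F libraries, while Het-F-0257 and Homo-F-0228 had 5.08 and 4.75. The female groups thus overlapped. *Cbr2*, a carbonyl reductase, ranged from 1.04 to 4.72 FPKM over all libraries, and *Ms4a7*, a membrane-spanning protein of the MS4A family, from 1.22 to 6.30. Of 6 tested platelet markers, *Gp9* had a mean of 32.4 FPKM, *Clec1b* 1.34, *Treml1* 1.07, *Itga2b* 0.201, *Ppbp* 0.155 and *Gp1ba* 0.142. In Homo-M against WT-M 2 of the 6 were below 0 and none was called, and the part of platelets in *Pf4* was not tested.

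**Figure D1:**
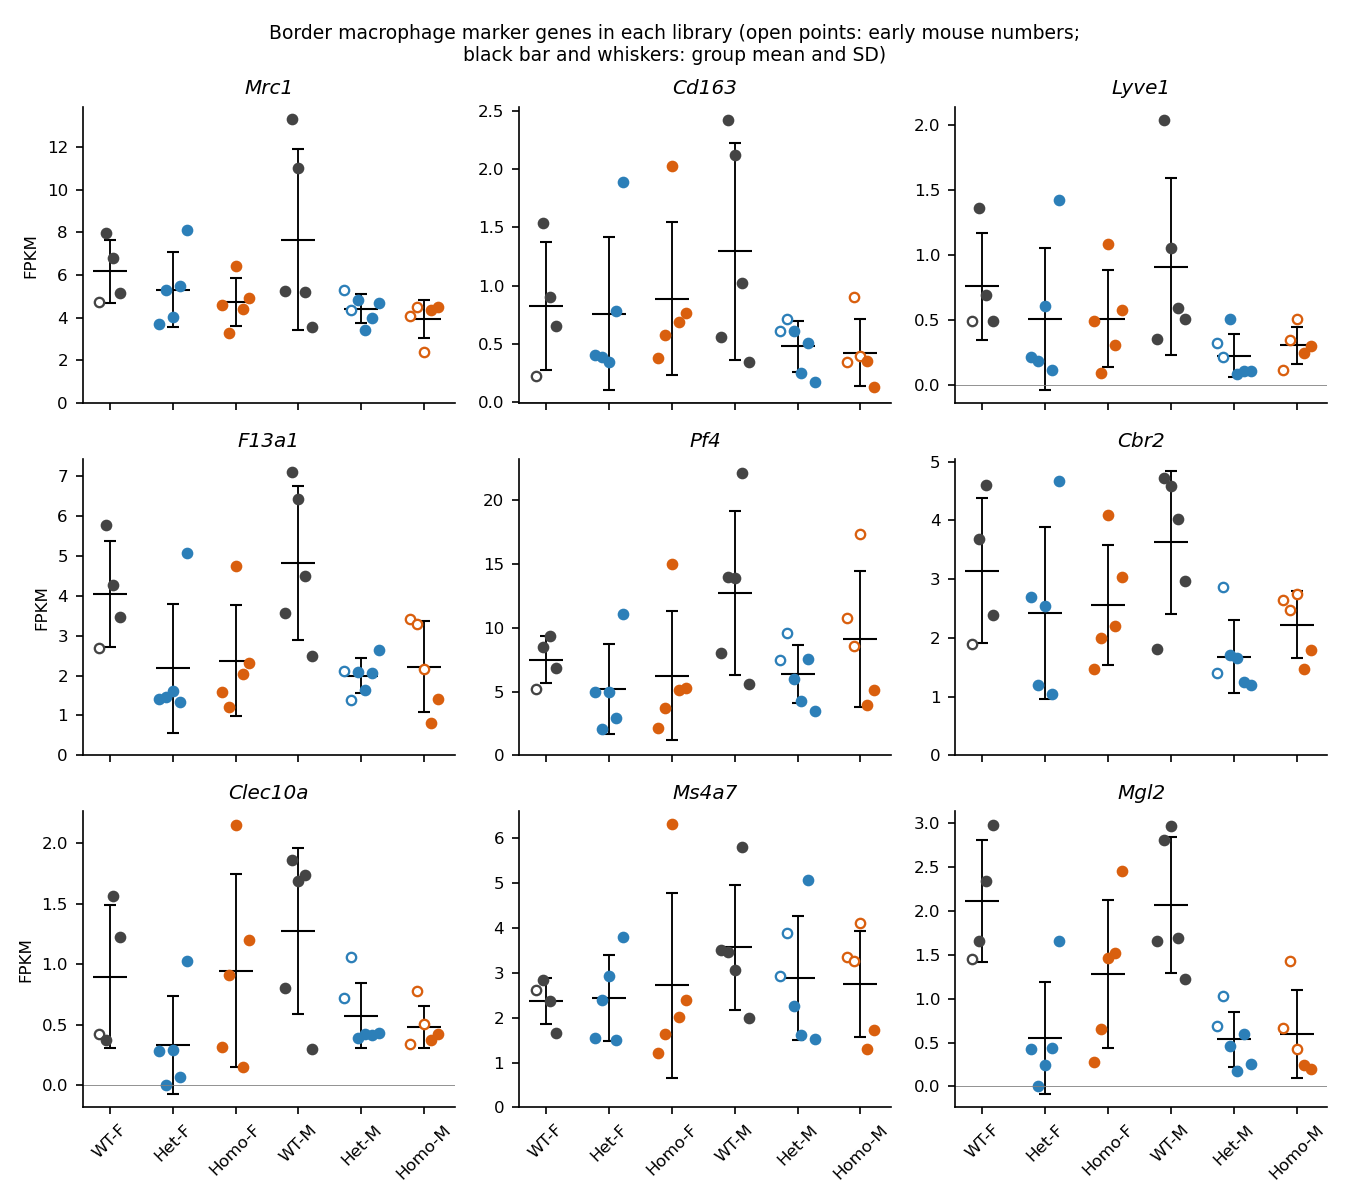
FPKM of the 9 border macrophage marker genes (vertical axes) in the 30 libraries by group, with 1 point per library, open for early mouse numbers, and with the mean and SD of each group as a black bar and whiskers. The WT-M points reach highest for *Mrc1*, where WT-M-0177 has 13.3, and the *Mgl2* points of Het-M, up to 1.03, lie below those of WT-M, from 1.22.

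The 9 genes varied together from library to library within their groups. After group means were taken out of the log2 levels, all 36 pairs of the 9 had a positive Pearson r over 30 libraries, with a median of 0.61 and a range from 0.18 to 0.83. An r above 0.5 was found for 27 of these pairs (75%), against 5.87% of pairs of all tested genes, whose median r was 0.005. These are descriptions, because the libraries share their preparation and the pairs share genes. The tightest pair was *Pf4* with *Ms4a7* (r 0.83), followed by *Pf4* with *Cbr2* (0.80) and *Cbr2* with *Clec10a* (0.72), and the loosest was *Mrc1* with *Ms4a7* (0.18). Each gene was also set against the mean standardised level of the other 8. *Cd163*, *Pf4*, *F13a1* and *Cbr2*, with r of 0.84, 0.84, 0.79 and 0.79, stood at rank 1 of the 16889 genes ranked against that mean. *Lyve1* was at rank 4 (r 0.71), *Clec10a* at rank 5 (0.71), *Mgl2* at rank 5 (0.70), *Ms4a7* at rank 16 (0.63) and *Mrc1* at rank 59 (0.54).

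**Figure D2:**
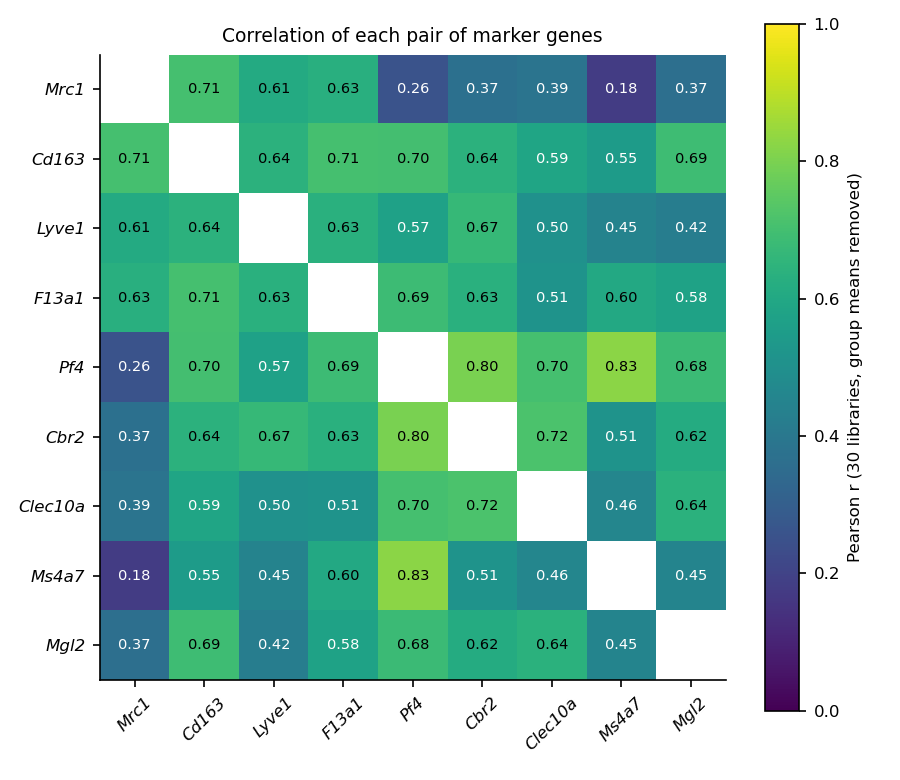
Pearson r of each pair of the 9 genes over 30 libraries after removal of group means, as colour and number, with genes on both axes. The block of *Cd163*, *F13a1*, *Pf4* and *Cbr2* holds values from 0.63 to 0.80, and the *Mrc1* row is lowest at *Ms4a7* (0.18) and *Pf4* (0.26).

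A first principal component of the 9 genes took 62.8% of their variance within groups, with loadings of one sign from 0.26 (*Mrc1*) to 0.37 (*Pf4*). The second took 12.6% and set *Mrc1* (loading 0.70), *Lyve1* (0.28) and *Cd163* (0.21) against *Ms4a7* (-0.41) and *Pf4* (-0.38). Within groups the SD of the log2 level was 0.48 for *Mrc1* to 0.96 for *Clec10a*, and each of the 9 exceeded the 0.33 that was the median of all tested genes. After group means were taken out, the mean level of the 9 had an r of -0.04 with relative depth and of -0.02 with the scale factor. Its r was 0.32 with the slope of a library's values on transcript length. Relative to their group, the highest mean levels were those of Het-F-0257, Homo-F-0228 and WT-M-0177, where the 9 genes summed to 38.7, 43.3 and 51.7 FPKM, and the lowest were those of WT-M-0258, the library labelled Het-F-0206 and Homo-F-0193, with 19.0, 13.001 and 12.5 FPKM. The median r stayed between 0.53 and 0.63 when any 1 library was left out, and was 0.61 without the libraries labelled Het-F-0206 and Het-M-0199.

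**Figure D3:**
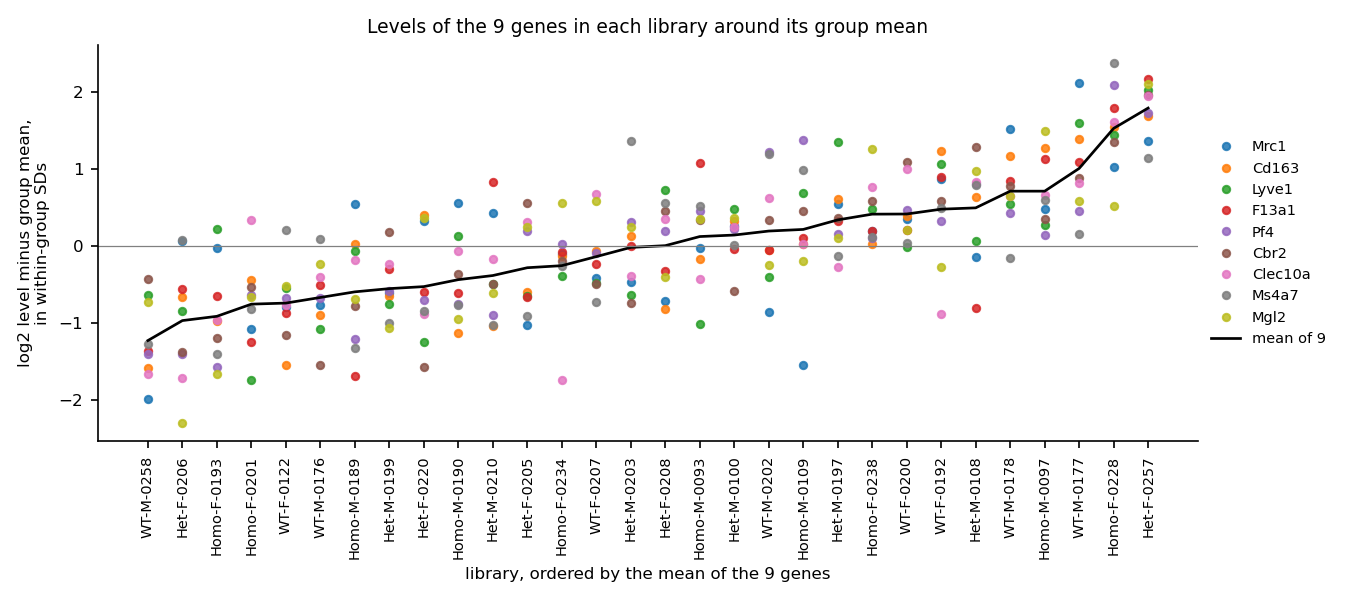
Levels of the 9 genes in each of 30 libraries (vertical axis, log2 level minus the group mean, in within-group SDs), ordered by the mean of the 9, which is the black line. The coloured points of most genes follow the line upward to Homo-F-0228 and Het-F-0257, and *Mrc1* stands apart below it in Homo-M-0109.

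*Mrc1*, a widely used marker of these cells, was taken as an anchor, and the slope of each gene on its log2 level within groups was tested by limma over 16896 genes. Slopes above 0 were called for 3 of the other 8 marker genes, against 5.74% of all genes. *Cd163* rose by 1.28 ± 0.26 log2 units per unit of *Mrc1* (SE, n = 30; Benjamini-Hochberg adjusted p from limma 0.00473), *Lyve1* by 1.09 ± 0.29 (SE; adjusted p 0.0167) and *F13a1* by 0.85 ± 0.21 (SE; adjusted p 0.0104). Without WT-M-0177, 2 of the 8 were called. The other 5 had slopes between 0.23 (*Ms4a7*) and 0.77 (*Clec10a*) with limma adjusted p from 0.172 to 0.590. Such calls were not confined to border macrophage genes. The microglial genes *Csf1r* (0.41, limma adjusted p 0.0323) and *Sall1* (0.25, 0.0169) and the choroid plexus gene *Kl* (1.61, 0.0223) were also called. The other genes of the microglial and choroid plexus lists were not. In two-sided permutation tests within groups (100000 permutations, 8 relations), the r with *Mrc1* was 0.71 for *Cd163* (p = 0.00042, rho 0.62, p = 0.00196), 0.61 for *Lyve1* (p = 0.0014, rho 0.60, p = 0.00258) and 0.63 for *F13a1* (p = 0.00111, rho 0.60, p = 0.00233). For the other 5, r was 0.18 to 0.39 and the permutation p of r was 0.0467 to 0.375. Without the 2 libraries farthest from the median of *Mrc1*, r was 0.62 with *Cd163*, 0.56 with *Lyve1*, 0.56 with *F13a1* and 0.076 to 0.32 with the other 5.

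Among the 24 late libraries alone, r with *Mrc1* was higher for each of the 8 genes, from 0.36 (*Ms4a7*) to 0.82 (*F13a1*), and the same number, 3 of 8, had a slope called. The early library Homo-M-0109, with 2.40 FPKM of *Mrc1* and 17.3 of *Pf4*, had low *Mrc1* and high *Pf4* for its group, and WT-M-0202 lay near it, with 5.205 and 22.2 FPKM. Their slopes of values on transcript length were -0.104, the lowest of all libraries, and -0.044. The longest transcript of *Mrc1* has 5374 bases and that of *Pf4* 588, the extremes among the marker genes. The part of length in this split was not tested. With *Pf4* as the anchor, slopes were called for *Ms4a7* (0.67, limma adjusted p 0.0018) and *Cbr2* (0.60, limma adjusted p 0.00513) out of 8 genes, against 0.0178% of all genes. With *F13a1* as the anchor none of the 8 was called, as for 0% of all genes, although the slopes of the 7 apart from *Mrc1* were 0.56 to 0.95. Which genes passed thus depended on the anchor, in part because p was adjusted over all genes, of which few followed *Pf4* or *F13a1*. *Cd163* had an r of 0.71 with *Mrc1* and also of 0.71 with *F13a1*.

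**Figure D4:**
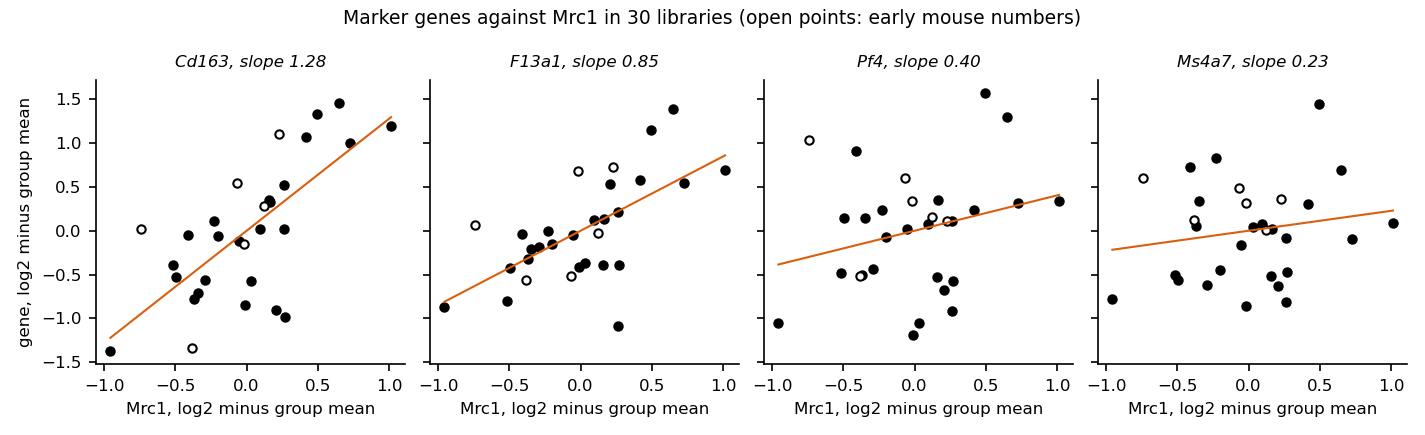
Log2 level minus the group mean of *Cd163*, *F13a1*, *Pf4* and *Ms4a7* (vertical axes) against that of *Mrc1* (horizontal axes) in 30 libraries, open points for early mouse numbers, with the fitted slope as a line. The slope falls from 1.28 for *Cd163* to 0.23 for *Ms4a7*, where the points scatter widely.

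In males the question was whether border macrophage markers differed with loss of *Bin1*. None of the 9 was called in Homo-M against WT-M by limma (adjusted p below 0.05 and a fold above 1.5), against 1.81% of all genes, but all 9 log2 fold changes were below 0 and 6 had an unadjusted p under 0.05. Over all genes 46.3% were below 0 and 22.5% had such a p. The members' median was -1.14, beside 0.03 for all genes. *Mgl2* had -1.90 ± 0.56 (SE, 5 against 5 libraries; limma adjusted p 0.0561), *F13a1* -1.23 ± 0.38 (adjusted p 0.0667) and *Mrc1* -0.88 ± 0.28 (adjusted p 0.0781). *Cd163*, *Lyve1*, *Clec10a* and *Cbr2* had -1.34, -1.23, -1.14 and -0.72, with limma adjusted p from 0.128 to 0.237. *Pf4* and *Ms4a7* had -0.60 and -0.49, the values nearest 0. The groups overlapped for each of the 9, whereas 1.37% of all genes were lower without overlap. Leaving out 1 library at a time moved *Mrc1* between -1.11 and -0.62, *F13a1* between -1.45 and -0.96 and *Mgl2* between -2.26 and -1.68. Without WT-M-0258, the WT-M library with the lowest member levels, *Mrc1* (-1.11) and *F13a1* (-1.45) were called, with limma adjusted p of 0.0310 and 0.0479, and without WT-M-0177, the highest, they had adjusted p of 0.224 and 0.162.

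Het-M was compared with the same WT-M libraries. None of the 9 was called by limma (0.154% of all genes were), all 9 log2 fold changes were below 0, with a median of -1.12 beside 0.01 for all genes, and 7 had an unadjusted p under 0.05. Over all genes 48.1% were below 0 and 14.2% had such a p. *Mgl2* had -1.92 ± 0.54 (SE, 6 against 5 libraries; limma adjusted p 0.143) and was the 1 gene of the 9 without overlap, against 0.326% of all genes lower without overlap. *Lyve1* had -1.61 ± 0.50 (SE), *F13a1* -1.23 ± 0.36 and *Cbr2* -1.12 ± 0.33, with limma adjusted p of 0.163 to 0.186. Without Het-F-0206 and Het-M-0199 the median was -1.03 in Het-M, 6 had an unadjusted p under 0.05, *Mgl2* was at -1.71 ± 0.48 (SE; limma adjusted p 0.126) and none of the 9 was called. In Homo-M against Het-M, none of the 9 was called by limma (0% of all genes), none had an unadjusted p under 0.05, and the median log2 fold change was 0.00 with a range from -0.19 (*Cd163*) to 0.40 (*Cbr2*).

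The WT-M libraries were wide, and their members' sum ran from 19.0 to 51.7 FPKM, against 13.5 to 25.1 in Het-M and 13.1 to 30.6 in Homo-M. Lists of other cell types differed in sign in the same contrasts. The 5 markers of choroid plexus epithelium summed to 0.352 to 270.02 FPKM in WT-M (median 73.7), 1.60 to 19.4 in Het-M (6.37) and 0.550 to 22.8 in Homo-M (11.6), with all 5 log2 fold changes below 0 and none called in both male contrasts. Neutrophil markers summed to 44.5 to 350.4 FPKM in WT-M, 0.162 to 190.02 in Het-M and 0.147 to 80.9 in Homo-M, and 4 of 9 tested were called lower in Homo-M. The 5 fibroblast genes summed to 0.425 to 4.09 FPKM in WT-M, at most 0.371 in Het-M and at most 0.425 in Homo-M, with 1 of 5 at 0 in all libraries and 1 of 5 tested, which was not called. In Homo-M against WT-M, 0 of 3 endothelial, 1 of 5 dendritic cell, 2 of 6 monocyte and 0 of 5 erythroid genes were below 0, with medians of 0.05, 0.50, 0.13 and 3.35, and none was called. The part of these cells in the levels of the 9 genes was not tested. Of the 12 microglial genes tested none was called in either male contrast, with medians of -0.20 in both. *Cx3cr1*, which is in this list, had -1.23 ± 0.69 in Homo-M and -1.24 ± 0.66 in Het-M (SE). It was at 1829 to 2344 FPKM in WT-M, and lower without overlap in Het-M (610 to 1209) and Homo-M (726 to 1112). Of all genes, 1.37% in Homo-M and 0.326% in Het-M were lower without overlap. The fit shares 1 spread over all groups, which include the library labelled Het-F-0206 at 13.9 FPKM.

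In females none of the 9 was called in Homo-F against WT-F (0.071% of all genes were), 8 log2 fold changes were below 0 with a median of -0.38, and 1, that of *F13a1* (-0.84 ± 0.40, SE, 5 against 4 libraries), had an unadjusted p under 0.05. Over all genes 49.2% were below 0 and 3.49% had such a p. In Het-F against WT-F none was called by limma (0.13% of all genes were), 9 were below 0 with a median of -0.72, and 3 had an unadjusted p under 0.05, against 50.3% and 3.95% of all genes. *Mgl2* had -2.27 ± 0.59 (SE, 5 against 4 libraries; limma adjusted p 0.178), *Clec10a* -1.49 ± 0.61 and *F13a1* -1.02 ± 0.40 (limma adjusted p 0.947 or more). The median for all genes was 0.00 in both female contrasts. Without the libraries labelled Het-F-0206 and Het-M-0199, the median in Het-F was -0.46 and 2 genes had an unadjusted p under 0.05. *Mgl2* was then at -1.73 ± 0.54 (SE; limma adjusted p 0.659), *Clec10a* at -1.07 ± 0.61 and *F13a1* at -0.93 ± 0.44. The groups overlapped for each of the 9 in both female contrasts, while 0.663% of all genes in Homo-F and 0.633% in Het-F were lower without overlap. Without Het-F-0257, which carried the highest levels in its group, *Mgl2* was called lower in Het-F (-2.76, limma adjusted p 0.0332).

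**Figure D5:**
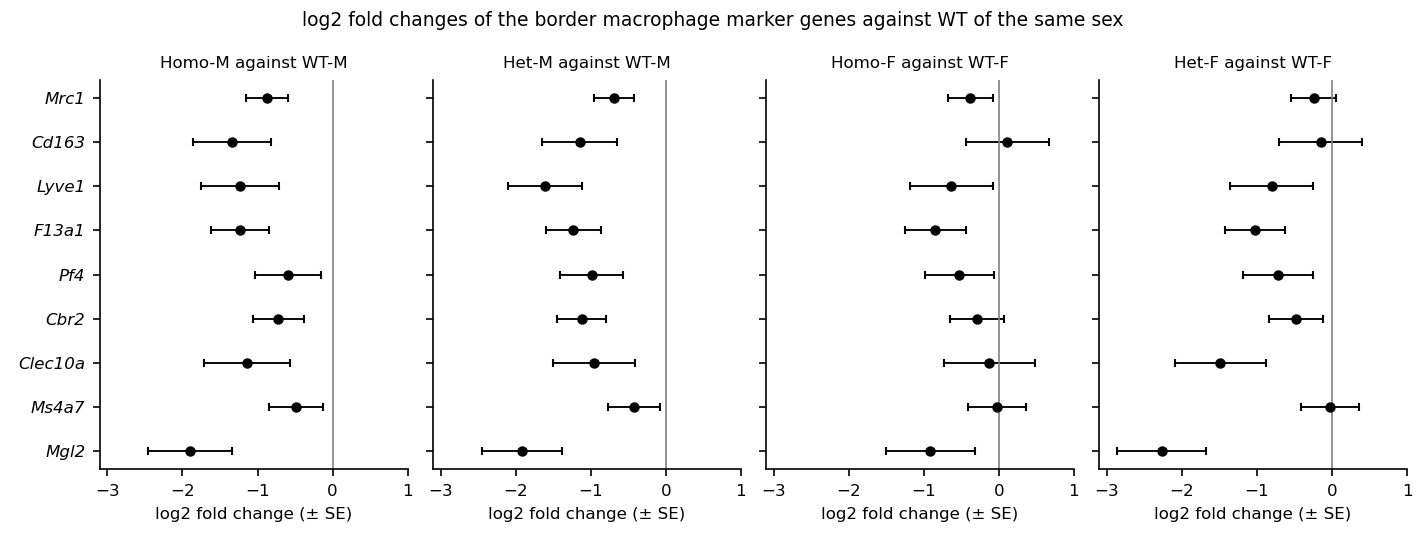
Log2 fold changes of the 9 genes with their SE (horizontal axes) against WT of the same sex for Homo-M, Het-M, Homo-F and Het-F. All male points lie below 0, from -1.92 to -0.42, while the Homo-F points run from -0.91 for *Mgl2* to 0.11 for *Cd163* and the Het-F points from -2.27 for *Mgl2* to -0.03 for *Ms4a7*.

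The differences were then compared between the sexes. In the interaction of sex with genotype, none of the 9 was called by limma for Homo (0% of all genes) or Het (0% of all genes), and none had an unadjusted p under 0.05. For Homo the male minus female difference of the log2 fold changes was below 0 for 9 of 9 genes, from -1.45 ± 0.76 (SE) for *Cd163* to -0.07 ± 0.64 for *Pf4*. For Het it was below 0 for 7 of 9, with a median of -0.39. Over all genes 48.5% were below 0 for Homo and 50.6% for Het. Homo-F against Het-F called none of the 9 (0.0118% of all genes were), 2 had an unadjusted p under 0.05, and the highest values were 1.36 ± 0.57 for *Clec10a* and 1.36 ± 0.56 for *Mgl2*, both higher in Homo-F, as 2.06% of all genes had such a p. Without the same 2 libraries these were 0.95 ± 0.58 and 0.81 ± 0.51 (SE), and none of the 9 had an unadjusted p under 0.05. In WT-F against WT-M none was called (0.0473% of all genes were) and none had an unadjusted p under 0.05. There 8 of 9 log2 fold changes were below 0 (53.5% of all genes were), with a median of -0.20.

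Mouse number range was compared in the 11 Cre-positive males, 5 early and 6 late, with genotype in the fit. *Pf4* was called higher in early libraries (0.89 ± 0.24 on the log2 scale, SE; limma adjusted p 0.0364), which makes 1 of 9 genes, against 7.42% of all genes. Within Homo-M it was at 10.8, 8.54 and 17.3 FPKM in early and 3.91 and 5.11 in late libraries, and within Het-M at 7.48 and 9.60 in early and 5.97, 4.22, 7.54 and 3.45 in late ones. Early values overlapped late ones in Het-M. In Homo-M they were above them, but with only 3 early and 2 late libraries, and the share of all genes split in this way was not counted. *Mgl2* (1.11 ± 0.37, SE; limma adjusted p 0.0628) and *Ms4a7* (0.70 ± 0.29; 0.114) were next. Of the 9, 3 had an unadjusted p under 0.05 (33.8% of all genes did). Neither this count nor the 1 call stood out from the shares of all genes. Above 0 were 8 of 9, with a median of 0.50 beside 0.10 for all genes, of which 43.1% were below 0. *Mrc1* was the exception at -0.19 ± 0.21. The slopes of values on transcript length were -0.104 to -0.036 in the 5 early libraries and -0.079 to 0.060 in the 6 late ones. No member was called in 8 of the 11 fits without 1 library, the exceptions being those without Het-M-0197 (1 called), Het-M-0203 (3) and Homo-M-0097 (1). Since WT-M holds late libraries alone, the male contrasts were also fitted in late mice: all 9 stayed below 0 in both, with medians of -1.26 in Homo-M (2 libraries) and -1.22 in Het-M (4), and none was called.

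The 10 genes outside the 9 whose within-group level followed the members' mean most closely were *Ube2o*, *Dab2*, *Cd209f*, *Emb*, *Colec12*, *C4b*, *Cd93*, *Clec4n*, *Akt1* and *H2-Aa*, with r from 0.73 down to 0.66 over 30 libraries. Of these 10, *C4b* (-1.13; limma adjusted p 0.0309) and *Clec4n* were called lower in Homo-M against WT-M. *Dab2*, an endocytic adaptor, *Cd209f* and *Clec4n*, C-type lectins, and *Colec12*, a scavenger receptor, are themselves in a further list of 20 border macrophage genes, of which 17 passed the filter. In Homo-M against WT-M, 1 of these 17, *Clec4n*, was called lower (-1.80 ± 0.45, SE; limma adjusted p 0.0309) and 17 of 17 were below 0, with a median of -0.43. In Het-M 15 of 17, in Homo-F 14 and in Het-F 13 were below 0, and none was called. *Stab1* (a mean of 136.0 FPKM), *Tgfbi* (29.3) and *Dab2* (10.3) had higher means than each of the 9 members, and their r with the members' mean was 0.30, 0.49 and 0.73. Of 6 tested genes of the MHC class II pathway, which border macrophages and dendritic cells use to present antigen, *Cd74* was called lower in Homo-M (-1.21 ± 0.31, SE; limma adjusted p 0.0318), and all 6 were below 0. *H2-Aa*, *Cd74*, *H2-Eb1* and *H2-Ab1* had an r of 0.66, 0.64, 0.63 and 0.56 with the members' mean, whereas *H2-DMa* and *H2-DMb1*, the genes of that list with the highest FPKM, had -0.13 and -0.14.

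Summed levels of the other lists were set against the members' mean. Such a sum follows the genes of its list with the highest FPKM. These were *Gp9* (a mean of 32.4 FPKM) for platelets, *Ighm* (287) for B cells and *Prox1* (1.81) for lymphatic endothelium. For MHC class II they were *H2-DMa* (131.7) and *H2-DMb1* (131.5). Whether a sum stands for its cell type was not tested. The summed level of the 12 microglial genes had an r of -0.08 with the members' mean, monocyte markers 0.15, dendritic cell markers 0.30, neutrophil markers 0.35, choroid plexus epithelium 0.27, platelet markers -0.20 and erythroid genes -0.25. T and NK cell markers were at most 0.425 FPKM in sum (r -0.15, 3 of 6 at 0 in all libraries). The highest r were those of mural cell genes (0.49), none of which passed the filter, MHC class II (0.43), the further border macrophage list (0.45) and lymphatic endothelial genes (0.45), and those of fibroblast, endothelial, astrocyte, oligodendrocyte, neuron and B cell genes were 0.25, 0.25, 0.07, 0.02, -0.08 and -0.27. Of the 5 tested dendritic cell genes, *Cd209a* had an r of 0.59, *Zbtb46* 0.24, *Flt3* 0.21, *Itgae* 0.03 and *Xcr1* -0.06.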

How the data were processed

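Microglia were sorted by FACS, and libraries were made with SMARTer and Nextera XT kits, as the study's methods state. The growth protocol in the labels is instead one for cultured microglia of pups, and which holds was not tested. The authors aligned reads to mm10 and deposited FPKM per gene, estimated by RSEM (the submitters' notes also name DESeq2). FPKM give no read totals, so a count test was not possible. Counting was not stated to use strand. A further 6 columns matched no listed sample and were not used. The paper reports that 6 samples were dropped for few uniquely mapped pairs and much duplication, and that they were also outliers by principal components. Whether the 6 columns are those samples was not tested.

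Libraries were scaled by median-of-ratios factors, from genes whose mean FPKM was at least 1, and limma 3.58.1 in R 4.3.3 was fitted to log2(FPKM + 0.1) with an intensity trend and all 6 groups, over 16897 genes with a mean of at least 0.1. Fold changes are on this log2 scale, where changes of low genes come out too small. Calls had a Benjamini-Hochberg adjusted p below 0.05 over all genes and a fold above 1.5, or for slopes an adjusted p below 0.05 and a slope above 0. Each number in the labels was taken as 1 mouse, and if it is not, p-values measure technical spread. Scripts were tested on simulated data. Python 3.11.15 and scipy 1.17.1 were used for depth and intervals.

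The members and lists were chosen with earlier results of these data known. Besides the 9 members, genes are named from the other lists (at most the 4 with the highest mean FPKM in each), from the 10 genes most like the members' mean, and *Bin1* and *Cx3cr1*. 1 item under this rule is not reported here. *Clec4n*, *Cd74*, *Csf1r*, *Sall1* and *Kl* were named for their calls, and the tested platelet, dendritic cell and MHC class II genes and *Prox1* after their values were seen. Alternatives were other pseudocounts, filters, scalings, weights, anchors, samples and covariates. A correction of each library for gene length, GC content and level was added after the data were seen.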

Additional observations from a re-analysis of the deposited data

Results flagged for a closer look

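In 54 sets of values (9 genes in 6 groups), 9 had a library far from the rest by Dixon's test at the 95% level, which chance gives in about 5% of sets. These 9 values fell in 4 libraries. Het-F-0257 was the highest of its group for *Cd163* (1.89 FPKM, the next 0.780), *F13a1* (5.08, the next 1.61), *Clec10a* (1.02, the next 0.290) and *Mgl2* (1.65, the next 0.443). Homo-F-0228 was the highest of its group for *Cd163* (2.03 FPKM, the next 0.765), *Pf4* (15.0, the next 5.29) and *Ms4a7* (6.30, the next 2.39). Het-M-0108 was the highest of its group for *Cbr2* (2.87 FPKM, the next 1.71), and Homo-M-0109 the lowest of its group for *Mrc1* (2.40 FPKM, the next 4.06).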

How the results depend on the processing

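The counts of called members turned on few genes. In Homo-M against WT-M 1 member, *Mgl2*, was called on log2(FPKM + 1), above a mean of 1 FPKM (6 members tested), with quantile normalization and without Het-F-0206 and Het-M-0199, and 0 to 2 were called without 1 library. In Het-F against WT-F 1 was called with array weights and 0 to 1 without 1 library. Early against late gave 0 with no filter and without Het-F-0206 and Het-M-0199, 2 with no scaling, 3 with array weights and 0 to 3 without 1 library, mostly 0. The slope on *Mrc1* was called for 1 member with genes of at least 1 FPKM, 0 with *F13a1* as the anchor and 5 with no group term. The median r of pairs kept within 0.57 to 0.67 under the other alternatives. Male log2 fold changes stayed below 0 in all 195 alternative values of Homo-M and 204 of Het-M. These values come from genes that varied together and from refits of mostly the same libraries, so they are not separate observations. Without Homo-M-0097 *Mgl2* was called in Homo-M (-2.26, limma adjusted p 0.0461).

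Signs turned for female values near 0. For *Ms4a7* in Homo-F the log2 fold change was 0.0163 with a pseudocount of 1, 0.0286 with array weights, 0.12 with number range as a covariate and 0.0168 in late mice, and -0.39 to 0.19 without 1 library. In Het-F it was 0.0878 with array weights, 0.12 with number range, 0.0135 in late mice and -0.20 to 0.11 without 1 library. *Cd163* in Homo-F was -0.33 in late mice, and without 1 library -0.33 to 0.47, and in Het-F -0.60 to 0.20. *Clec10a* in Homo-F ran from -0.51 to 0.29. The cause was not tested. No paired analysis was possible because mouse numbers are not shared between groups.

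Low levels limit *Lyve1*, *Cd163*, *Clec10a* and *Mgl2*, and depth in reads is unknown.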
